A study of Mus musculus with 24 samples.

Results

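Interleukin-27 (IL-27) is a cytokine made of a p28 subunit, encoded by Il27, and a second subunit encoded by Ebi3. It binds a receptor built from the specific chain IL27RA (Il27ra) and gp130 (Il6st), a chain shared with interleukin-6 and its relatives. The kinases JAK1 and JAK2 lie on the inner side of such receptors and phosphorylate STAT proteins, which then act as transcription factors. SOCS3, itself induced by STAT3, binds gp130 and JAK and shuts the pathway down. The levels of the RNAs of these proteins, which are described here, are not a measure of phosphorylation or of secreted cytokine.

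The 9 genes Il27, Ebi3, Il27ra, Il6st, Jak1, Jak2, Stat3, Stat4 and Socs3 were taken from 55401 genes with counts, by their Ensembl identifiers and the symbols of GENCODE M21. They were measured in 24 tumors of the mouse prostate adenocarcinoma line TC2Ras, a derivative of TRAMP-C2 with activated H-Ras, grown in male C57/BL6 mice 8 to 10 weeks old. In the subcutaneous (SC) experiment 300000 cells were placed in each flank, and tumors taken on day 7 came from mice given an empty vector (control, n = 2) or an IL-27 plasmid (IL-27, n = 2). In the intratibial experiment 100000 luciferase-expressing cells were placed in each tibia. Mice received empty vector (control), the IL-27 plasmid (IL-27), empty vector with the kinase inhibitor cabozantinib (cabo), or the plasmid with cabozantinib (IL-27+cabo). From each of these groups 3 tumors were taken on day 14 and 2 at the end of the study (EOS), when the mouse reached an ethical endpoint. Cabozantinib was given at 30 mg/kg by daily gavage for 2 weeks after implantation, and the other mice received its vehicle, so EOS tumors of both cabo groups were sampled after dosing. The study's IL-27 is a modified form, with a C-terminal peptide added to target the alpha chain of the interleukin-6 receptor. As in the study, it is called IL-27 here. The study describes 2 pairs of control and IL-27 plasmids, 1 of which carries the reporter gene Lucia. The names of the intratibial control libraries point to the other pair and the text on the intratibial mice to the reporter pair, so the vector is called empty only as labelled. The plasmids were injected into muscle (the tibialis anterior in the intratibial experiment) with microbubbles and ultrasound, and RNA was taken from the tumor. The sources used here do not tell whether both SC tumors of a group came from separate mice, so the SC p-values may measure technical spread.

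Each tumor had between 63729005 and 83782258 counts on genes. SC and intratibial libraries carry different prefixes in their names, and the experiments were never tested against each other. Levels are given as CPM, the count of a gene relative to the total of its library after TMM scaling, which aligns libraries on the bulk of their genes, and comparisons between genes use RPKM, which is the CPM per kilobase of exon. A gene was called changed at an adjusted p under 0.05 in edgeR's quasi-likelihood test over all tested genes. Against the label of prostate adenocarcinoma, the prostate gene Pbsn had 0 counts in all 24 tumors, while Krt8, Krt18, Epcam, Cdh1 and Hras were detected in every tumor. In bulk tumors, fewer cells of a type and less RNA per cell cannot be told apart, which holds for every level given here. The summed level of 9 skeletal muscle markers ranged from 2.98 CPM in an SC control tumor to 3900 CPM in the day 14 IL-27+cabo tumor of mouse 20, which also had the fewest counts. The part of muscle in the results was not tested beyond its use as a covariate.

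Per length, Jak1 was the most abundant of the 9 genes over the 20 intratibial tumors, with a median of 23.9 RPKM. Socs3 (median 18.5 RPKM), Stat3 (16.9), Il6st (16.1) and Jak2 (13.2) followed, and the ranges of these 5 genes overlapped with each other. A gap separated them from Ebi3, whose highest tumor (4.75 RPKM) lay below the lowest value among those 5 genes (5.58 RPKM, for Il6st in mouse 20). Ebi3 (median 1.79 RPKM), Il27ra (1.11) and Stat4 (0.567) had overlapping ranges. Il27 was lowest, at a median of 0.0841 RPKM and at 0 counts in 7 of the 20 tumors. The shared chain, the kinases, Stat3 and Socs3 thus had higher levels per length than both cytokine subunits, the specific receptor chain and Stat4.

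**Figure D1:**
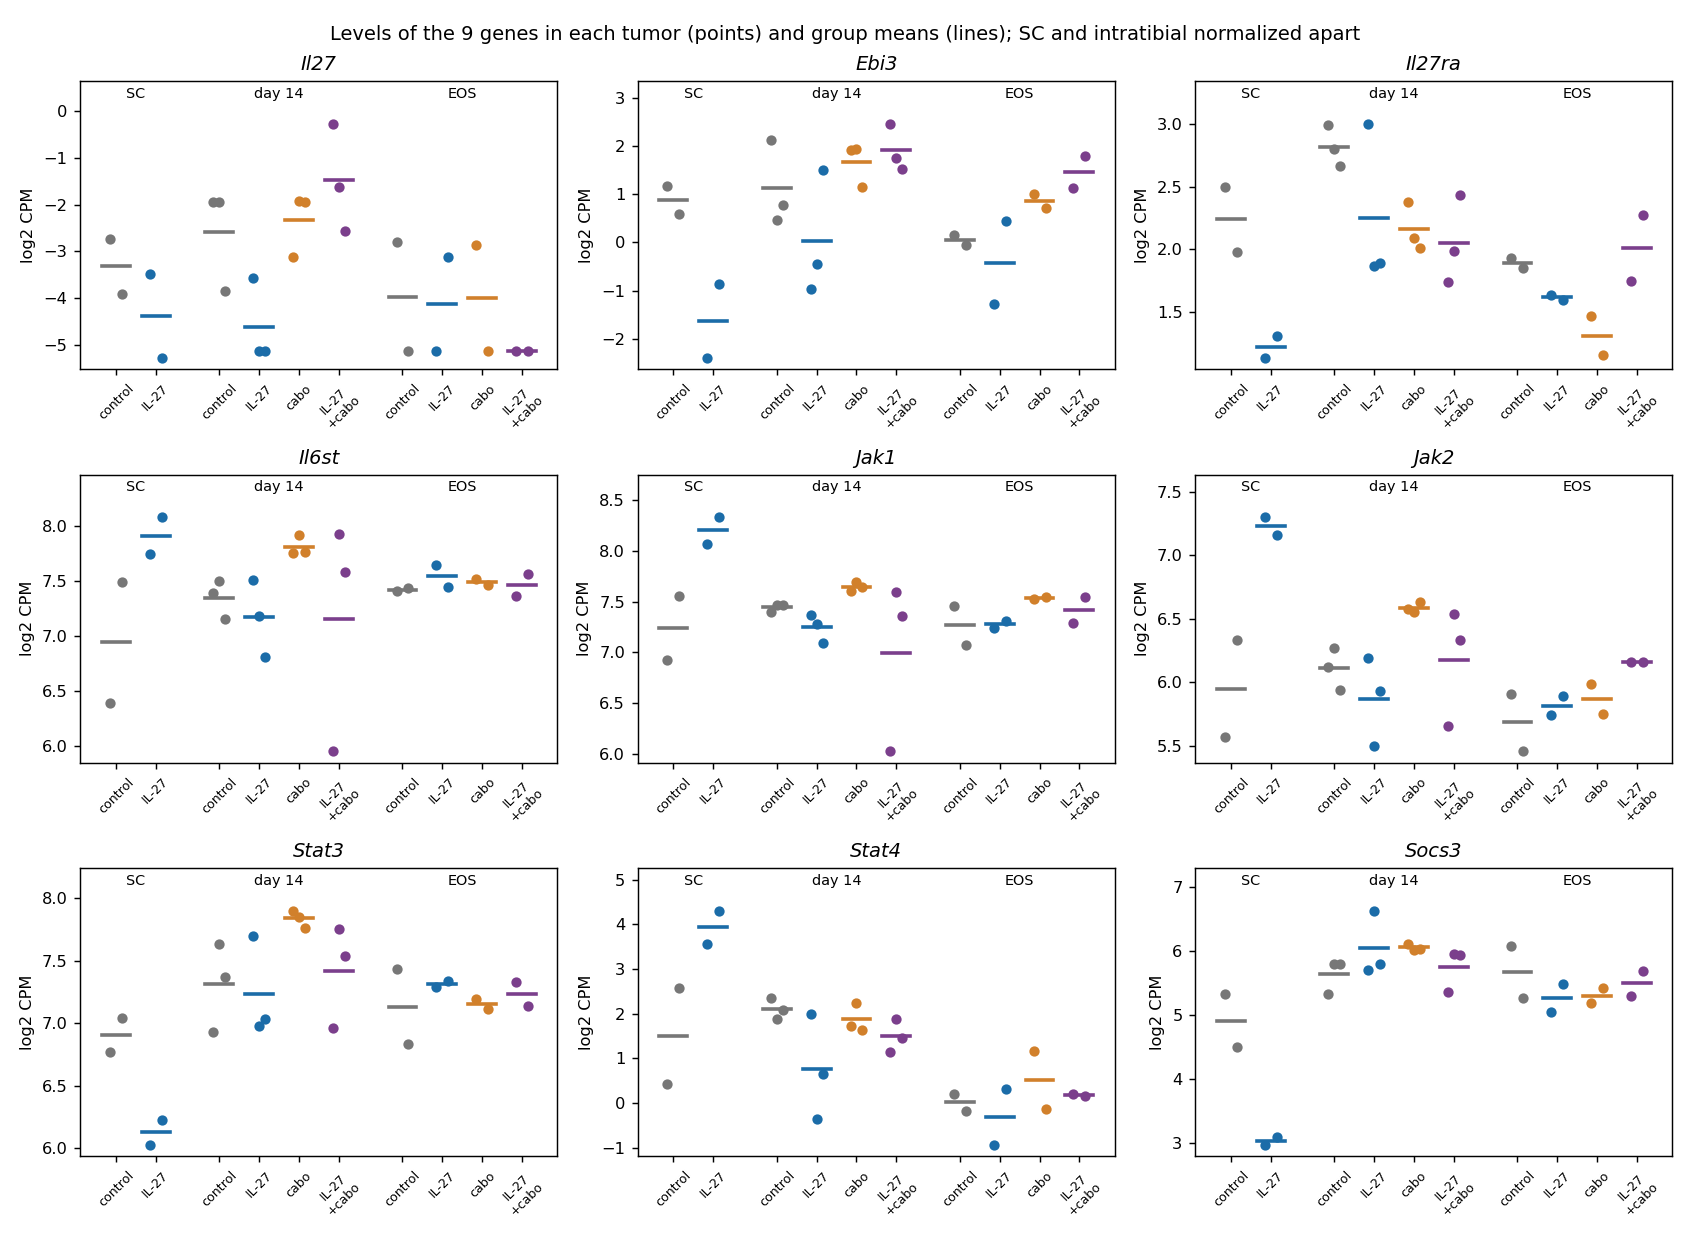
Level of each of the 9 genes on a log2 CPM scale with a prior count of 2 (vertical axis) in 4 subcutaneous (SC), 12 day 14 and 8 EOS tumors, grouped by treatment (horizontal axis). Points are tumors and lines are group means. Tumors with 0 counts of Il27 form the lowest points of its panel, and Stat4 was at 2.2 CPM or less in all EOS tumors.

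The p28 gene Il27 (chr7:126589010-126594941, minus strand, GRCm38) was close to the limit of detection. Counts of 3, the upper limit that a count of 0 allows for counting error, correspond to between 0.0376 and 0.0562 CPM in these libraries. SC control tumors had 10 and 3 counts of Il27, and SC IL-27 tumors had 5 and 0. The tumors treated with the plasmid had no more counts of Il27 than their controls, and the gene did not pass the filter on low counts in this comparison. On day 14 the counts were 17, 18 and 3 in control, 4, 0 and 0 in IL-27, 6, 17 and 16 in cabo and 43, 22 and 10 in IL-27+cabo tumors. The 43 counts were in the tumor of mouse 20, and the 3 IL-27+cabo tumors all lay above the 3 IL-27 tumors. At EOS the gene had 0 counts in 5 of 8 tumors and 8, 6 and 8 counts in 1 control, 1 IL-27 and 1 cabo tumor. Il27 shares 103 exon bases with Apobr on the opposite strand, and the counting is not stated to use strand, so reads of these genes may not be separable. The study's methods describe an IL-27 plasmid as encoding EBI3 joined to p28, so reads of its transcript could also count for Il27 and Ebi3, and plasmid and endogenous reads cannot be told apart in these counts. The tumor of mouse 20, which received the plasmid, was also the highest in markers of muscle, the injected tissue. Day 14 IL-27 tumors, which also received the plasmid, had muscle markers at 19.9 to 1750 CPM and 4, 0 and 0 counts of Il27. Day 14 cabo tumors, with empty vector, had them at 890 to 1550 CPM and 6, 17 and 16 counts. The part of plasmid reads was not tested.

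Ebi3 (chr17:55952640-55957022, plus strand), the second subunit, which also pairs with other cytokine chains, was found in every tumor, at 0.382 to 5.48 CPM in the bone. In day 14 tumors it was at 4.33, 1.36 and 1.68 CPM in control, 0.486, 0.696 and 2.8 in IL-27, 3.76, 3.78 and 2.19 in cabo, and 5.48, 3.34 and 2.84 in IL-27+cabo. All IL-27+cabo tumors lay above all IL-27 tumors, by a log2 difference of 1.53 (SE 0.72, adjusted p = 0.916, edgeR), which was not called. Il27 lay above in the same way, as did 6.8% of all genes. At EOS Ebi3 was at 1.09 and 0.936 CPM in control, 0.382 and 1.33 in IL-27, 1.98 and 1.6 in cabo, and 2.16 and 3.4 in IL-27+cabo. There both cabo groups lay above the controls, as did 21.8% of all genes with cabo and 21.6% with IL-27+cabo. Averaged over both times and both plasmids, cabo tumors had more Ebi3 by 1.12 on the log2 scale (SE 0.35, 2.17-fold, adjusted p = 0.105), which missed the threshold in edgeR. It was called in DESeq2 (adjusted p = 0.0225). Of the 9 genes none was called in edgeR for cabo on average, where 2.71% of genes were, and 2 had an unadjusted p under 0.05, against 14.3% of all genes. The other was Jak2 (0.32, SE 0.12, adjusted p = 0.188). Ebi3 was called without day 14 IL-27 8 (1.41, 0.0115) and Jak2 without IL-27+cabo 20 (0.36, 0.0232). With the muscle score as a covariate the difference of Ebi3 was 0.42 (SE 0.6). Ebi3 shares 270 exon bases with the antisense gene Gm16712.

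Over the 20 intratibial tumors the 3 genes whose log2 CPM was most like that of Ebi3 were Lpcat2 (Pearson's r = 0.956), Ctss (0.948) and AB124611 (0.945), chosen as the highest of 13885 genes searched. Genes compared in this way share the libraries, their depth and their scaling, so these values are descriptions. Ctss encodes cathepsin S, a protease of antigen-presenting cells. Ebi3 also followed Itgax, the gene of the dendritic cell and macrophage integrin CD11c (r = 0.55, permutation p = 0.0115, adjusted over 6 relations 0.023; Spearman's rho = 0.51, permutation p = 0.0238, adjusted 0.0357; n = 20). Pearson's r was 0.6 without the 2 tumors farthest from the median of Itgax, 0.42 within day 14 (n = 12) and 0.83 within EOS (n = 8). With the mean of each group subtracted it was 0.51.

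The IL-27 specific receptor chain Il27ra (chr8:84030294-84042589, minus strand) was highest in day 14 control tumors and in 1 IL-27 tumor. The values were 7.92, 6.92 and 6.3 CPM in control, 7.98, 3.62 and 3.67 in IL-27, 5.18, 4.23 and 3.99 in cabo, and 3.31, 3.95 and 5.36 in IL-27+cabo tumors. Both cabo groups lay below the controls without overlap, as did 11.9% of all genes with cabo and 7.58% with IL-27+cabo, whereas 1 IL-27 tumor, of mouse 4, was as high as they were. Against the same 3 controls the log2 fold change of Il27ra was -0.68 with cabo (SE 0.18, adjusted p = 0.109) and -0.73 with IL-27+cabo (SE 0.3, adjusted p = 0.784), and neither was called. At EOS it was at 3.79 and 3.58 CPM in control, 3.09 and 3 in IL-27, 2.75 and 2.2 in cabo, and 3.32 and 4.79 in IL-27+cabo tumors. Except in IL-27+cabo tumors, day 14 and EOS did not overlap within a treatment, and the share of genes lower without overlap was 17.6% in control, 11.6% in IL-27 and 20.3% in cabo tumors. Averaged over the 4 treatments, the log2 change at EOS was -0.65 (SE 0.17, adjusted p = 0.0696), which missed the threshold in edgeR and was called in DESeq2 (adjusted p = 0.00469).

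The 3 genes most like Il27ra were Lck (r = 0.897), Cd28 (0.87) and Trac (0.865), all of which act in signaling by the T cell receptor. The level of Cd3e, a chain of the T cell receptor complex, split the tumors, with the 3 day 14 controls and the IL-27 tumor of mouse 4 at 3.18 log2 CPM or above and the other 16 at 1.67 or below. A correlation with Cd3e over all 20 was therefore not used. The values of Lck, Cd28 and Trac include the tumors that stood apart and were not computed without them. Within the 16 tumors, Il27ra and Cd3e had r = 0.51 (permutation p = 0.0437, adjusted over 2 relations 0.0874) and rho = 0.52 (permutation p = 0.042, adjusted 0.042). Without the 2 tumors farthest from the median of Cd3e, r was 0.3, so the relation among them rested in part on those tumors. With Adgre1, the F4/80 gene of macrophages, Il27ra had r = 0.2 over 20 tumors (permutation p = 0.406, adjusted 0.406) and rho = 0.32 (permutation p = 0.17, adjusted 0.17). That r was 0.41 without the 2 farthest and 0.0 with the mean of each group subtracted.

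Il6st (chr13:112464070-112510086, plus strand), the shared gp130 chain, was even at EOS and varied more on day 14. At EOS it was between 164 and 200 CPM in all 8 tumors. On day 14 it was at 168, 181 and 142 CPM in control, 182, 145 and 112 in IL-27, 216, 243 and 217 in cabo, and 62, 244 and 191 in IL-27+cabo tumors. The cabo tumors were all above the controls, and the tumor of mouse 20 was the lowest of all. Jak1 (chr4:101152367-101265282, minus strand) had the same low tumor, with 65.4 CPM in mouse 20 against 135 to 206 in the other 19. The genes most like Il6st were Flnc (r = 0.971), Mon2 (0.971) and Usp47 (0.97), and without mouse 20 these were at 0.922, 0.928 and 0.936. For Jak1, App (0.97) and Ano6 (0.962) were the most alike, and these were at 0.861 and 0.823 without that tumor.

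Socs3 is a textbook target of STAT3, and Socs3, Stat3 and Jak2 are the genes with calls in the cabo comparison over time given further on, so the stretches before their start sites are shown. The motif TTCNNNGAA, the palindrome bound by STAT dimers and the same on both strands, was searched in RefSeq windows from 250 bases before to 50 after each start site (GRCm38.p6). It occurs in 8.3% of 32851 windows. Of the 7 genes of the set with a window, 1 held it, Socs3, with its match beginning 154 bases before the start site. For Socs3 only the 165 bases of the window with no annotated exon are given, and they lie inside the GENCODE gene, which starts at position 117970047. Capitals mark the match, and a match or its absence in these windows is a description of the letters only.
Socs3, chr11:117969452-117969616, minus strand: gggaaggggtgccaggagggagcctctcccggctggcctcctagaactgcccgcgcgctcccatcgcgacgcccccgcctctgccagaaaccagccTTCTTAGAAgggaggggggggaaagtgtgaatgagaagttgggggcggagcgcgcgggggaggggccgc
Stat3, chr11:100939541-100939790, minus strand: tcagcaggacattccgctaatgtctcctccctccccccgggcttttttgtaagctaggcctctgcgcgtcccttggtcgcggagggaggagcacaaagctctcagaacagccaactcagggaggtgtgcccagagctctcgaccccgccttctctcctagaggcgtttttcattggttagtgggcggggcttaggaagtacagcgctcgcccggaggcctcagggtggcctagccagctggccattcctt
Jak2, chr19:29251553-29251802, plus strand: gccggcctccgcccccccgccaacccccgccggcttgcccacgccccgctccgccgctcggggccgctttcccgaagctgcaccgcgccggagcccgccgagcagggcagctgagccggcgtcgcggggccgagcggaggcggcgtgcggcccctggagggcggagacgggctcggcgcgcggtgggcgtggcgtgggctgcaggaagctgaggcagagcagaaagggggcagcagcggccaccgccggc

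The question of the SC experiment was what IL-27 gene therapy does to the tumor. Of the 8 genes that could be tested, 1 was called, Socs3, which was lower in IL-27 tumors. Across all genes 20% of 19360 were called, and 16.5% were called lower. Socs3 (chr11:117966079-117970047, minus strand) was at 40.3 and 22.4 CPM in control and at 7.83 and 8.51 CPM in IL-27 tumors. The groups did not overlap, and the log2 fold change was -1.94 (SE 0.42, adjusted p = 0.0195, edgeR). Without control tumor 1 it was -1.45 and was not called, nor was it called without either IL-27 tumor.

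All 8 tested genes had no overlap between the SC groups, 4 higher and 4 lower, where 31.9% and 35% of all genes had none in each direction. The higher ones were Jak2, Il6st, Jak1 and Stat4 and the lower ones Stat3, Il27ra, Ebi3 and Socs3. The split followed base composition. The 4 genes that were higher have exons with 44.3% to 47.6% G and C, and the 4 that were lower have 52.5% to 58.7%. Over all tested genes the median log2 fold change was 0.85 for genes with 17.1% to 44.5% GC and -2.05 for genes with 53.9% to 78.3% GC, with Spearman's rho of -0.68 between fold change and GC content across 19334 genes, which are not independent replicates.

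With each library corrected for its trend with GC content and transcript length, 8.62% of genes were called and none of the 8, in edgeR. Then 2 of the lower genes turned higher. Socs3 went from -1.94 to 0.65 (SE 0.33, adjusted p = 0.288) and Il27ra from -1.05 to 0.71 (SE 0.45, adjusted p = 0.417). Ebi3 went from -2.41 to -0.08 (SE 0.72) and Stat3 from -0.78 to -0.23 (SE 0.26). Jak2 moved from 1.23 to 0.55 (SE 0.26) and Jak1 from 0.93 to 0.6 (SE 0.28). Stat4 (chr1:51987148-52107189, plus strand), which transmits interleukin-12 signals in T and NK cells, went from 2.13 to 1.63 (SE 0.63, unadjusted p = 0.0357, adjusted 0.17). Uncorrected, it was at 1.43 without control tumor 1 (adjusted p = 0.172), and was called without control tumor 2 (3.55, 0.0211) or IL-27 tumor 1 (2.44, 0.0218). Jak2 (1.61, 0.0178) and Jak1 (1.24, 0.0427) were also called without control tumor 2, and Ebi3 without IL-27 tumor 2 (-3.48, 0.02). The direction of Socs3 and Il27ra in SC tumors therefore depended on this correction, and whether the trend arose in the libraries or in the tumors cannot be told apart, since it separates the groups. Uncorrected, unadjusted p-values under 0.05 were obtained for 6 of 8 genes, against 35.4% of all genes: Socs3, Ebi3 (SE 0.8, adjusted p = 0.0767), Stat3 (SE 0.31, 0.127), Jak1 (SE 0.36, 0.112), Jak2 (SE 0.37, 0.0591) and Stat4 (SE 0.73, 0.0845).

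**Figure D2:**
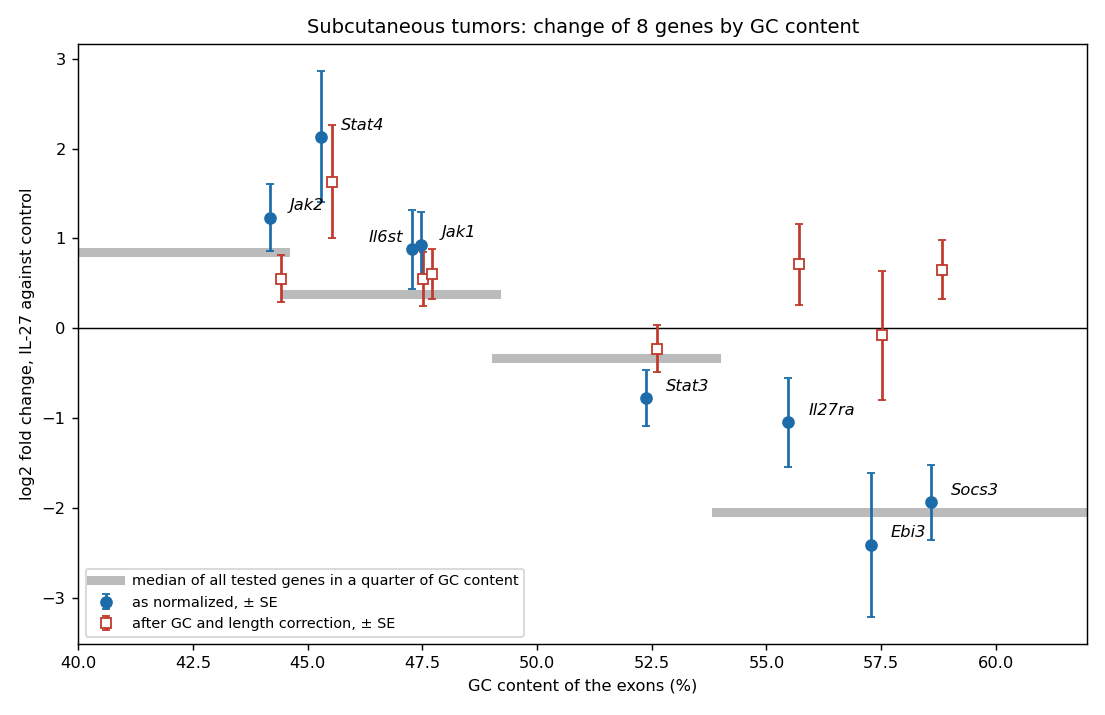
Log2 fold change of IL-27 against control SC tumors (vertical axis, 2 tumors against 2, bars are SE) for the 8 tested genes by the GC content of their exons in percent (horizontal axis). Filled circles are values as normalized and open squares values after correction for GC content and length. Grey bars are medians of all tested genes in 4 equal classes of GC content, drawn between 40% and 62% only. The circles fall from left to right with the grey bars, and the squares of Il27ra and Socs3 lie above 0.

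Some sums of markers of other cells were also higher in SC IL-27 tumors, without correction for the trend with GC content. Summed T cell markers (8 genes) were at 28.8 to 33.7 CPM against 11.8 to 12.3 in controls, NK cell markers (6 genes) at 43.3 to 70.5 against 12.8 to 15.5, and muscle markers at 368 to 948 against 2.98 to 10.4. Marrow neutrophil granule markers (8 genes) were at 37.8 to 39.4 CPM against 0.878 to 2.01, with Mpo, Elane, Ltf and Camp at 0 counts in both controls. Lck, in the T cell list, had a value of -1.5 (SE 0.52, adjusted p = 0.0854). Endothelial markers were at 362 to 770 CPM against 260 to 321, and the leukocyte gene Ptprc at 211 to 222 against 29.9 to 76.8. B cell markers, at 1.72 to 5.69 against 0.68 to 2.81 CPM, and macrophage markers, at 937 to 1330 against 1120 to 1330, overlapped. Among the 6 macrophage markers the complement genes C1qa (-3.86, SE 0.45, adjusted p = 0.00225) and C1qb (-3.03, SE 0.52, 0.00786) and Cd68 (-2.05, SE 0.49, 0.0284) were called lower, while Mrc1 was at 1.53 (SE 0.46, 0.0609) and Adgre1 at 0.93 (SE 0.35, 0.104), neither called. The sum of 5 dendritic cell markers was lower, at 40.2 to 41.4 CPM against 41.5 to 53, with Flt3 called lower (-1.93, SE 0.4, 0.0169) and Xcr1 (2.04, SE 0.69, 0.082), Zbtb46 (1.56, SE 0.49, 0.0662) and Itgax (0.41, SE 0.37, 0.463) above 0 and not called. The sum of 5 bone markers, at 284 to 516 against 1380 to 1720 CPM, followed Col1a1 (-2.06, SE 0.43, 0.0163), while Phex was at 0.88 (SE 0.36, 0.134) and Dmp1 at 0.68 (SE 1.17, 0.72), and Bglap and Ibsp were at 0 counts in the controls and not tested. The part of these cells in the change of Stat4 was not tested.

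Other genes of the pathway were described from lists, with the counts of calls after correction for GC content and length. Over all genes 16.5% were called lower and 3.52% higher before correction. Of 16 tested ligands and receptors of the IL-12 and IL-6 families, 5 were called higher and 3 lower, with a median log2 fold change of 0.38 against 0.04 over all genes. After correction 1 was called higher and the median was 1.03 against -0.05. That gene was Il12rb2, a receptor chain for interleukin-12, with 0 counts in both control tumors and 138 to 143 in IL-27 tumors. It passed the filter on low counts only through the IL-27 tumors, so its call is a description of these counts. Il6 had 53 to 78 counts in control and 417 to 544 in IL-27 tumors (2.85, SE 0.53, adjusted p = 0.0105), and after correction it was at 1.7 (SE 0.53, adjusted p = 0.099) and not called.

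Of 12 tested genes that IL-27 is known to induce in T cells, 2 were called higher and 9 were higher at an unadjusted p under 0.05 (12.3% of all genes), with a median of 1.41, and after correction 1 was called, with a median of 1.36. Icos, a T cell costimulator, was called in both, with 43 to 54 counts in control and 358 to 601 in IL-27 tumors (3.26, SE 0.57, adjusted p = 0.00858, corrected 2.46). Of the 6 other JAK and STAT genes 4 were called lower (median -1.7), and after correction 1 was, Stat5b (-1.29, SE 0.28, adjusted p = 0.0358), at a median of 0.03. Of 15 brakes on the pathway 1 was called higher and 3 lower (median 0.03), and after correction only Pias4, an inhibitor of STATs, was called, with 1423 to 2032 counts in control and 42 to 83 in IL-27 tumors (corrected -1.92, SE 0.42, adjusted p = 0.0345). Of 12 genes induced by STAT3, 1 was called higher and 3 lower (median -0.03), and after correction 2 were called higher and none lower in edgeR (median 0.82). Saa3, an acute phase gene, was called in both, with 129 to 238 counts in control and 1224 to 1503 in IL-27 tumors (corrected 2.55, SE 0.45, adjusted p = 0.0188).

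On day 14 the intratibial tumors addressed what IL-27, cabo and both do in the bone. None of the 8 tested genes was called with IL-27 in edgeR or DESeq2, nor was any at an unadjusted p under 0.05, where 2.76% of all genes were and 0% were called. The values ranged from -1.03 for Stat4 (SE 0.55, 95% interval from -2.29 to 0.24) to 0.46 for Socs3 (SE 0.28). Stat4 had 5.11, 3.65 and 4.21 CPM in control and 3.99, 0.758 and 1.55 in IL-27 tumors. The 2 low tumors, of mice 6 and 8, were also low in T cell markers, with 11.3 and 15.6 CPM against 60.9 in mouse 4 and 60.2 to 69.5 in controls.

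With cabo alone none of 9 genes was called in edgeR, where 1.89% of genes were. At an unadjusted p under 0.05 there were 5 of 9, against 18.9% of all genes, and DESeq2 called 3, namely Jak2, Il27ra and Il6st. Jak2 (chr19:29251828-29313080, plus strand) had 69.7, 77.2 and 61.5 CPM in control and 95.9, 93.5 and 98.7 in cabo tumors. The groups did not overlap, at a log2 fold change of 0.45 (SE 0.1, adjusted p = 0.0666), and it was called when the control of mouse 5 was left out (0.53). Stat3 (chr11:100885098-100939540, minus strand), the main transducer of gp130, had 122, 198 and 166 CPM in control and 239, 231 and 217 in cabo tumors, a change of 0.48 (SE 0.17, adjusted p = 0.184). It shares 72 exon bases with Stat5a on the opposite strand. Socs3 had 40.3, 55.8 and 55.7 CPM against 69.1, 64.8 and 65.2, a change of 0.37 (SE 0.14, adjusted p = 0.21), and Il6st had a value of 0.44 (SE 0.11, adjusted p = 0.0872). Without the control of mouse 3, Stat3 was at 0.3 and Socs3 at 0.22.

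The 3 cabo tumors lay above the 3 controls for Il6st, Jak1, Jak2, Stat3 and Socs3, and below them for Il27ra, where 14.9% and 11.9% of all genes had no overlap in these directions. Muscle markers were at 890 to 1550 CPM in these cabo tumors and at 3.5 to 112 in the controls, so the groups did not overlap in muscle either. Nor did they in endothelial markers, at 117 to 132 CPM against 149 to 244. Of these, Emcn (-2.7, SE 0.24, adjusted p = 0.00314) and Kdr (-1.56, SE 0.28, 0.0401) were called lower, and the part of endothelium was not tested. With the muscle score as a covariate the change of Stat3 was -0.31 (SE 0.21) and that of Socs3 -0.19 (SE 0.23), both reversed. Stat4 was at 3.29, 4.71 and 3.09 CPM in cabo tumors and overlapped with the controls, while their T cell markers, at a sum of 18.5 to 28.3 CPM, did not. Of these 8 markers, 6 had log2 fold changes below 0 and 4 of them were called (Cd3e, Cd3g, Cd4 and Lck, with Cd3e at -1.97, SE 0.19, adjusted p = 0.00399), whereas Cd8a was at 2.62 (SE 0.63, adjusted p = 0.0859) and Cd8b1 at 2.02 (SE 0.55, 0.122), neither called.

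For IL-27+cabo against control, none of 9 genes was called in edgeR or DESeq2, where 0.064% of genes were called in edgeR. Il27ra was the only one at an unadjusted p under 0.05 (0.0427), against 6.2% of all genes. The interval of the change of Jak2 (0.11) ran from -0.51 to 0.73 and that of Stat3 (0.12) from -0.56 to 0.8, so changes as large as those with cabo alone lie within them. The tumor of mouse 20 was the lowest of its group for Il27ra, Il6st, Jak1, Jak2, Stat3, Stat4 and Socs3 and the highest for Il27 and Ebi3. Between IL-27+cabo and cabo, and between IL-27+cabo and IL-27, none was called by edgeR or DESeq2 and none had an unadjusted p under 0.05, as against 1.92% and 4.85% of all genes, and 0% of genes were called in each. In the test of whether both agents combine additively on the log scale, none was called by either tool. Only Il27, with few counts, had an unadjusted p under 0.05 (0.0281, adjusted 0.952), against 1.88% of all genes.

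**Figure D3:**
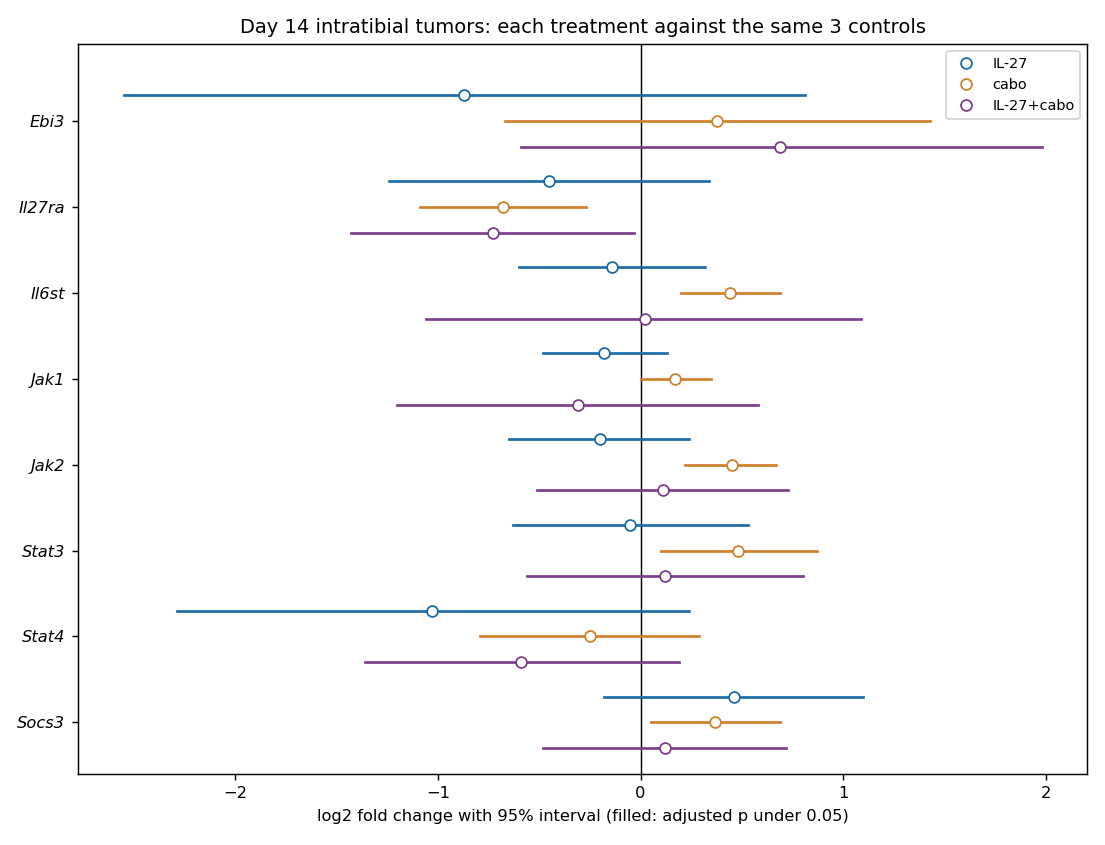
Log2 fold change with its 95% interval (horizontal axis) of 8 genes in day 14 tumors treated with IL-27, cabo or both, each against the same 3 control tumors. No point is filled, as no adjusted p was under 0.05. The intervals of cabo lie above 0 for Il6st, Jak2, Stat3 and Socs3 and below 0 for Il27ra.

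At EOS none of the 8 tested genes was called in any treatment against the shared 2 controls, by edgeR or DESeq2, and 0% of genes were called by edgeR in each. IL-27+cabo had 2 genes at an unadjusted p under 0.05, against 14.2% of all genes. Ebi3 differed by 1.44 (SE 0.57, adjusted p = 0.317) and Jak2 by 0.44 (SE 0.17, adjusted p = 0.317). Jak2 was at 60.3 and 43.8 CPM in control and at 71.3 in both IL-27+cabo tumors, and the difference was 0.22 without EOS control 13 and 0.7 without EOS control 9. In the same IL-27+cabo tumors macrophage markers were at 532 to 922 CPM against 279 to 466 in controls, and dendritic cell markers at 21.5 to 36.4 against 14.4 to 19.1. Muscle markers were at 99.9 to 189 against 4.68 to 8.99, and endothelial markers at 213 to 325 against 126 to 207. T cell markers were lower, at 5.97 to 10.1 against 14.2 to 14.4, and the part of these cells was not tested. With IL-27 and with cabo none of the 8 reached an unadjusted p of 0.05, where 3.25% and 8.9% of all genes did.

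Over time, Stat4 was lower at EOS on average over the treatments. It had 5.11, 3.65 and 4.21 CPM in day 14 controls and 1.13 and 0.853 in EOS controls. In IL-27 tumors it went from 3.99, 0.758 and 1.55 to 0.496 and 1.21 CPM, in cabo tumors from 3.29, 4.71 and 3.09 to 2.2 and 0.887, and in IL-27+cabo tumors from 2.19, 3.67 and 2.73 to 1.13 and 1.09. EOS and day 14 tumors overlapped only with IL-27, and in IL-27+cabo tumors 10.8% of all genes lay lower without overlap. The log2 changes were -2.12 (SE 0.32, adjusted p = 0.0914) in control, -1.29 (SE 0.77, 0.818) in IL-27, -1.23 (SE 0.42, 0.204) in cabo and -1.39 (SE 0.46, 0.925) in IL-27+cabo tumors, all by edgeR and none called. In cabo tumors the change was -2.03 without EOS cabo 19 and -0.73 without EOS cabo 23. Within control none of the 9 genes was called by edgeR and 2 by DESeq2, with 2 at an unadjusted p under 0.05 (Stat4 and Il27ra), where 0.104% of genes were called and 13.1% were under that p. Within IL-27 none of 8 was called by either tool and 1 was under that p (Socs3), against 0% and 5.05% of genes. Within IL-27+cabo none of 9 was called by edgeR and 1 by DESeq2, and 2 were under that p (Stat4 and Il27), against 0% and 3.83%. Averaged over the 4 treatments in 1 fit of 20 tumors, Stat4 fell by 1.51 on the log2 scale (SE 0.3, 0.351-fold, adjusted p = 0.0149). It was the only one of the 9 genes called there, where 1.31% of genes were called lower and 1.9% in all. At an unadjusted p under 0.05 were 6 of 9, against 14.8% of all genes, also Il27ra, Il27, which had a group at 0 counts, Socs3 (-0.44, SE 0.15, adjusted p = 0.162), Jak2 (-0.32, SE 0.12, 0.216) and Ebi3 (-0.81, SE 0.35, 0.292), which was at -0.52 without day 14 IL-27 8. Without IL-27+cabo 20, Il27ra (-0.66, 0.0334) and Jak2 (-0.35, 0.0416) were also called, and without day 14 IL-27 6 Il27ra was (-0.69, 0.042). With the muscle score as a covariate Stat4 was at -1.71 and not called (adjusted p = 0.0942), and leaving out EOS control 13, EOS IL-27 10, EOS cabo 23 or EOS IL-27+cabo 16 gave -1.38 to -1.51 and no call.

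T cell markers were also lower at EOS, without overlap in control, cabo and IL-27+cabo tumors. Their sum was 60.2 to 69.5 CPM in day 14 controls and 14.2 to 14.4 in EOS controls, 11.3 to 60.9 and 11.6 to 15.5 in IL-27 tumors, 18.5 to 28.3 and 7.07 to 8.22 in cabo tumors, 16.3 to 21 and 5.97 to 10.1 in IL-27+cabo tumors, with all 8 markers above 0 in every group. NK cell markers were at 8.79 to 12.5 CPM in day 14 and 2.61 to 4.27 in EOS controls and at 4.92 to 8.11 and 1.71 to 2.55 in IL-27 tumors, without overlap. In cabo tumors they were at 6.79 to 11.7 and 2.88 to 7.08 and in IL-27+cabo tumors at 7.15 to 14.2 and 4.21 to 10.5, with overlap. The part of these cells in the lower Stat4 was not tested. The genes most like Stat4 were Ms4a4b (r = 0.9), Sh2d2a (0.885) and Rasal3 (0.877), over all 20 intratibial tumors. These values were not computed without the tumors that stood apart in Cd3e. Within the 16 tumors without the 4 that stood apart in Cd3e, Stat4 and Cd3e had r = 0.39 (permutation p = 0.139, adjusted over 2 relations 0.139) and rho = 0.6 (permutation p = 0.0159, adjusted 0.0318), and r was 0.32 without the 2 farthest tumors. Within the 8 EOS tumors alone r was -0.28. Stat4 shares 1033 exon bases with Gm28177 on the same strand, so some of its reads may belong to that gene.

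**Figure D4:**
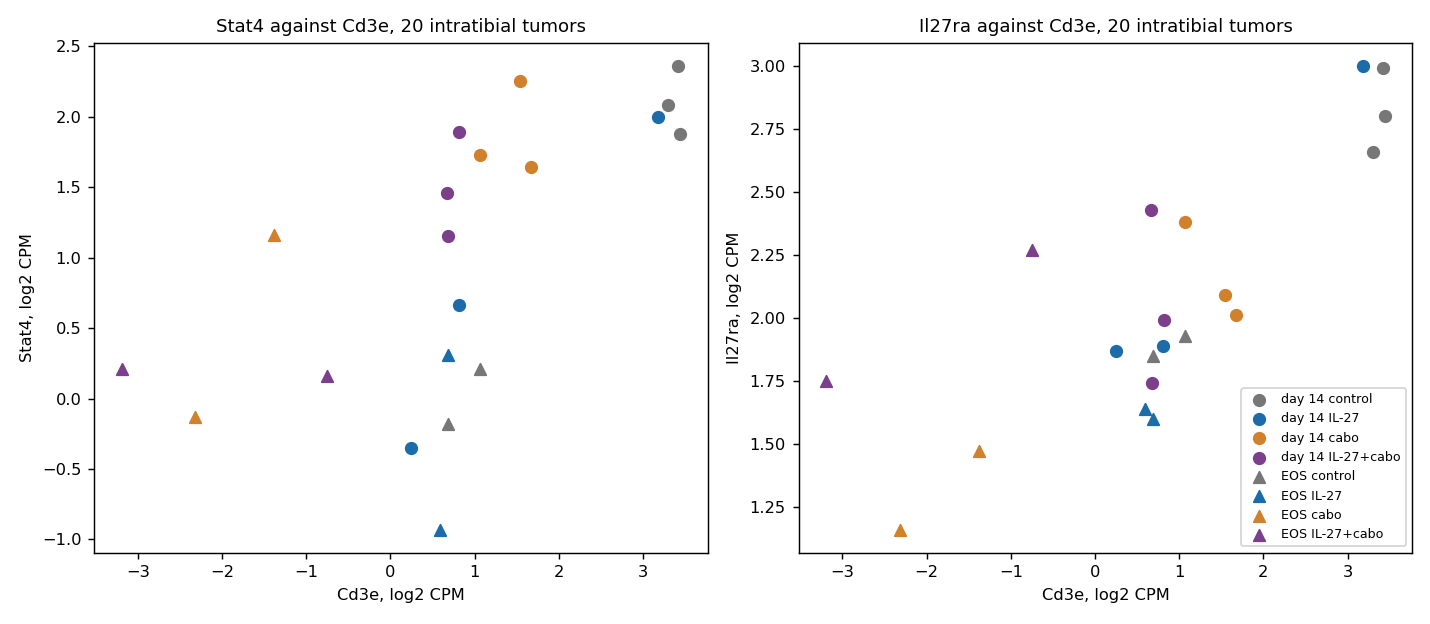
Stat4 (left) and Il27ra (right) against Cd3e in the 20 intratibial tumors, all axes in log2 CPM. Circles are day 14 and triangles EOS tumors, colored by treatment. The 4 tumors with Cd3e at 3.18 log2 CPM or above are the day 14 controls and 1 IL-27 tumor, and the 4 EOS tumors treated with cabo or IL-27+cabo have the lowest Cd3e. Of these, the cabo tumors have low Il27ra, while the IL-27+cabo tumor with the lowest Cd3e, of mouse 16, has Il27ra at 1.75 log2 CPM.

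Within cabo, 3 of 9 genes were called lower at EOS than on day 14, where 1.14% of genes were called lower and 2.09% in all. Stat3 went from 239, 231 and 217 CPM to 146 and 138 (-0.66, SE 0.07, adjusted p = 0.0109). Jak2 went from 95.9, 93.5 and 98.7 to 63.5 and 53.6 (-0.69, SE 0.09, adjusted p = 0.0195). Socs3 went from 69.1, 64.8 and 65.2 to 36.3 and 42.9 (-0.72, SE 0.09, adjusted p = 0.0198). Within each of these groups the tumors were close together, and the groups were far apart. All genes but Il27 had no overlap and lay lower at EOS, where 20.3% of all genes did. At an unadjusted p under 0.05 there were also Il6st (-0.3, SE 0.08), Il27ra (-0.83, SE 0.22), Stat4 and Ebi3 (-0.83, SE 0.31), against 17.6% of all genes.

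None of the 3 was called with the muscle score as a covariate (Stat3 -0.63, Jak2 -0.52, Socs3 -0.91), or in 1 fit of all 20 tumors (-0.69, -0.71 and -0.74). Muscle markers in cabo tumors were at 890 to 1550 CPM on day 14 and at 100 to 779 at EOS. Leaving out the day 14 tumor of mouse 21 also removed all 3 calls, and leaving out that of mouse 27, or the EOS tumor of mouse 23, left 1. In the other treatments, the changes of Stat3 were -0.18 (SE 0.25) in control, 0.05 (SE 0.25) in IL-27 and -0.23 (SE 0.32) in IL-27+cabo tumors, and those of Socs3 were 0.07 (SE 0.26), -0.82 (SE 0.33, adjusted p = 0.818) and -0.29 (SE 0.31). Without the day 14 tumor of mouse 6 the change of Socs3 in IL-27 tumors was -0.46. Jak2 was at -0.41 (SE 0.18) in control, where EOS also lay lower without overlap, and at -0.08 in IL-27 (SE 0.23) and in IL-27+cabo tumors (SE 0.33). The difference between the changes in cabo and in control was tested and was not called for any of the 9 genes by edgeR or DESeq2, nor under an unadjusted p of 0.05, as against 0.0788% of genes called by edgeR and 4.11% under that p. The same held for the difference of IL-27 from control (0% and 1.93% of genes) and of IL-27+cabo from control (0.0788% and 9.14%). For Socs3 the difference between cabo and control was -0.81 (SE 0.42, 95% interval from -1.7 to 0.09), for Stat3 -0.51 (SE 0.38, from -1.31 to 0.29) and for Jak2 -0.3 (SE 0.34).

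**Figure D5:**
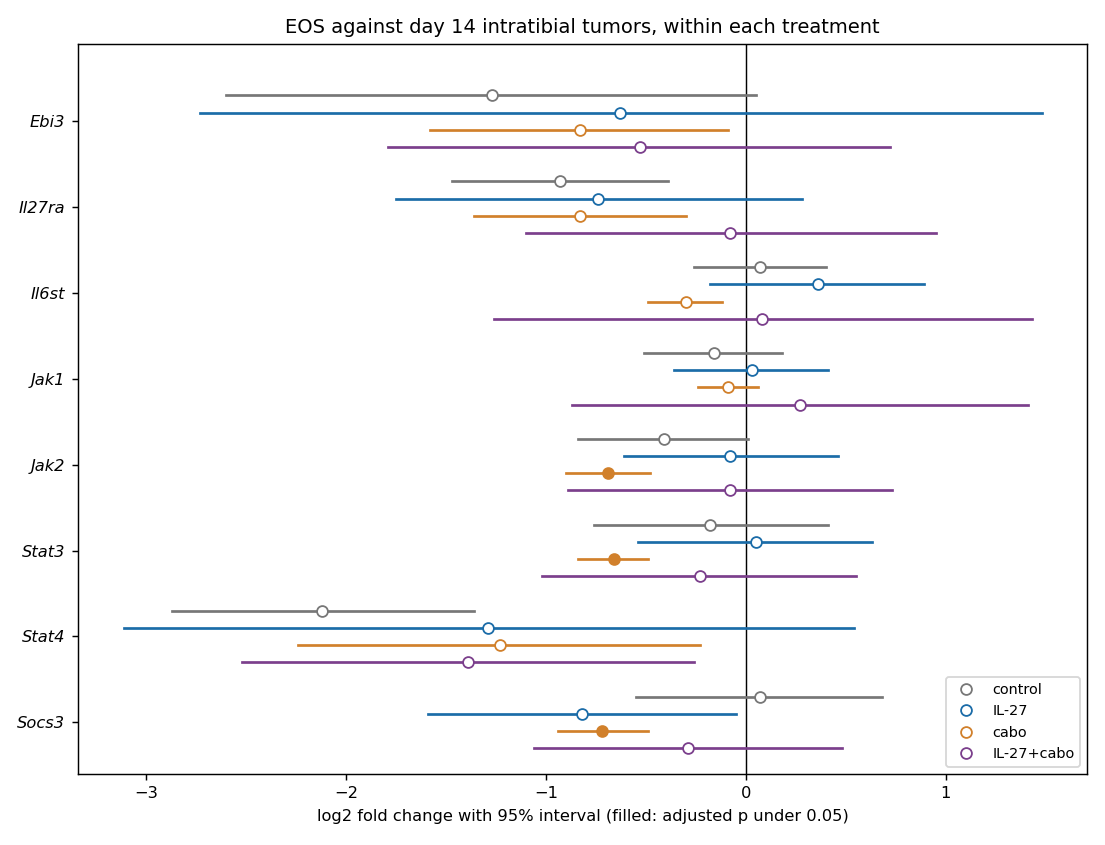
Log2 fold change of EOS against day 14 tumors with its 95% interval (horizontal axis) for 8 genes within each of the 4 treatments (2 against 3 tumors each). Filled points have an adjusted p under 0.05, which are Jak2, Stat3 and Socs3 in cabo tumors. All points of Stat4 lie below 0.

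The gene most like Stat3 was Osmr, the oncostatin M receptor, which also signals through gp130 (r = 0.91), followed by Sbno2 (0.898) and Scin (0.876). For Socs3 it was Pim1 (0.812), a kinase gene induced by STATs, then Trib1 (0.77) and Gm8355 (0.741), and for Jak2 Ltbp2 (0.908), Vwa5a (0.902) and Trpm6 (0.894). Between Stat3 and Socs3 themselves, r was 0.43 over 20 tumors (permutation p = 0.06, adjusted over 6 relations 0.0901) and rho was 0.59 (permutation p = 0.0071, adjusted 0.0142). Without the 2 tumors farthest from the median of Stat3, r was 0.32, within day 14 0.29 and within EOS 0.36. With the mean of each group subtracted it was 0.32. Between Il6, whose product is the best known inducer of Socs3, and Socs3, r was 0.36 (permutation p = 0.114, adjusted 0.136) and rho 0.38 (permutation p = 0.0987, adjusted 0.118). That r was 0.08 without the 2 farthest tumors and 0.26 with the mean of each group subtracted.

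In the bone the same lists had calls with cabo and over time. In cabo tumors 11 of 12 genes induced by STAT3 were lower at EOS, 9 at an unadjusted p under 0.05 and 4 called, with a median of -0.7 against 0.01 over all genes, of which 17.6% had such a p in either direction and 1.14% were called lower. The called genes were Il4ra, the interleukin-4 receptor (-1.03, SE 0.08, adjusted p = 0.00426), the kinase gene Pim1 (-0.79, SE 0.12, 0.0286), Junb (-0.61, SE 0.09, 0.0286) and Bcl3 (-0.78, SE 0.14, 0.0462). Of 16 ligands and receptors 3 were called lower, namely Osmr (-1.67, SE 0.1, adjusted p = 0.00181), Lif (-1.61, SE 0.23, 0.0286) and Osm, the oncostatin M gene (-2.26, SE 0.36, 0.0368). Osmr had 5019 to 5564 counts on day 14 and 1569 to 1799 at EOS. Of 13 genes induced by IL-27 in T cells 2 were called lower, Cd274, which encodes PD-L1 (-0.99, SE 0.17), and Ly6c2 (-2.22, SE 0.38). Other markers moved in the same cabo tumors without overlap. Macrophage markers were at 675 to 874 CPM on day 14 and 509 to 524 at EOS (Mrc1 at -0.88, SE 0.09, adjusted p = 0.00998), and endothelial markers at 117 to 132 and 221 to 268 (Emcn at 3.31, SE 0.22, adjusted p = 0.00189). Their part in the changes of Stat3, Jak2, Socs3 and the lists was not tested. None of the 6 other JAK and STAT genes and none of the 15 brakes was called by edgeR, while 4 and 1 of them were lower at an unadjusted p under 0.05.

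On day 14, cabo against control gave 3 calls in the lists, all among the 13 genes induced by IL-27 in T cells, where 1.89% of all genes were called. Lag3, a checkpoint receptor, had 634 to 743 counts in control and 97 to 181 in cabo tumors (-2.12, SE 0.26, adjusted p = 0.0107), and Il21, a T cell cytokine, had 178 to 200 against 8 to 24 (-3.58, SE 0.42, 0.00875). Cd274 was higher (0.94, SE 0.15, 0.0265). The summed level of T cell markers was lower in the same tumors, though Cd8a and Cd8b1 were not among the lower ones, and their part was not tested. With IL-27 or IL-27+cabo no gene of the 5 lists was called on day 14 in edgeR. At an unadjusted p under 0.05 there were 4 genes with IL-27, all lower, and 7 with IL-27+cabo, beside 2.76% and 6.2% of all genes. In IL-27+cabo tumors Il21 had 0 counts in all 3.

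Over both plasmids and drugs, 12 of 12 genes induced by STAT3 had lower values at EOS, with a median of -0.64 against -0.03 over all genes, and 2 were called, Il4ra (-0.72, SE 0.15, adjusted p = 0.02) and Saa3 (-2.97, SE 0.56, 0.0139), where 1.31% of all genes were called lower. In the same comparison 8 of 9 muscle markers were called lower, among them Acta1 (-3.65, SE 0.8, adjusted p = 0.0281), and the endothelial genes Emcn (1.34, SE 0.15, 0.000255) and Kdr (0.9, SE 0.18, 0.0151) higher, and their part was not tested. In control tumors alone 6 of the 12 were lower and 6 higher at EOS, with a median of 0 and none called in edgeR, and 2 were at an unadjusted p under 0.05, both lower. Of 13 genes induced by IL-27 in T cells, Icos (-2.15, SE 0.37, adjusted p = 0.00736), Lag3 (-1.36, SE 0.28, 0.02) and Tbx21, the T-bet gene (-1.58, SE 0.38, 0.0452), were called lower at EOS. In the same comparison 5 of 8 T cell markers were called lower, among them Cd3e (-2.39, SE 0.39, adjusted p = 0.0055), and their part was not tested. With cabo over both times 2.71% of all genes were called. Stat2, which acts downstream of interferon, was called higher (0.99, SE 0.21, 0.0209), as the 1 call among 6 other JAK and STAT genes. Of 12 genes induced by STAT3, Il4ra (0.84, SE 0.15, 0.0106) and Saa3 (3.01, SE 0.55, 0.0124) were called higher. Of 13 genes induced by IL-27 in T cells, Ly6c2 was called higher (2.61, SE 0.43, 0.00831), and Lag3 (-1.22, SE 0.27, 0.0243), Tigit (-0.53, SE 0.13, 0.0411) and Il21, which had 0 counts in 3 of the 4 groups with cabo, were called lower. There 3 of 8 T cell markers were called lower and 8 of 9 muscle markers higher. Cd8a was at 1.41 (SE 0.73, 0.418) and Cd8b1 at 1.9 (SE 0.8, 0.273), neither called. The macrophage gene Mrc1 (1.02, SE 0.24, 0.036) and the NK cell gene Klrk1 (1.57, SE 0.36, 0.0283) were called higher, while Eomes was at -0.27 (SE 0.2, 0.623). Endothelial Emcn was called lower (-0.67, SE 0.15, 0.0253), while Tek was at 0.63 (SE 0.2, 0.106). The part of these cells was not tested. Averaged over IL-27, none of the 9 genes was called by edgeR or DESeq2 or reached an unadjusted p of 0.05, against 2.27% of all genes under that p and 0% called, and no gene of the lists was called.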

How the data were processed

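Poly(A) RNA of 24 tumors was sequenced from stranded TruSeq libraries. The authors deposited raw counts per Ensembl gene for each tumor. The submitters' processing notes list FastQC, HISAT2, StringTie and DESeq2 with the build GRCh38, a human build, although all identifiers are mouse genes. The study's methods name cutadapt and HISAT2 with a mouse genome, and the program that made the counts and its strand setting are not given in the sources used here. Between 30.4% and 35.5% of low counts per tumor were multiples of 4, so dividing by 4 was tried. Of 55401 identifiers, 55141 were in GENCODE M21, which gave symbols, positions and exon lengths (GRCm38).

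SC and intratibial tumors were normalized apart by TMM and tested with edgeR 4.0.16 quasi-likelihood fits (R 4.3.3, limma 3.58.1) after its filter on low counts, with Benjamini-Hochberg adjustment over all tested genes. Each comparison used its own groups, the 3 EOS treatments shared a fit, and averages and differences of changes used all 20 intratibial tumors. Intervals are 95% on the log2 scale, from the t distribution with edgeR's degrees of freedom. The tests were tested on simulated data. Depth was 69240429 to 83782258 counts in SC and 63729005 to 75305934 in intratibial tumors, and intervals and limits from counts cover counting error only. Alternatives were DESeq2 1.42.0, RLE factors, no filter, division by 4, looser limits for a call, correction for GC content and length, the muscle score as covariate, 1 fit of 20 tumors and leaving out each tumor. Correlation tests used 100000 permutations and were two-sided. Tumors were permuted across treatments and times, so these p-values also take in differences between groups.

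The 9 genes and the lists were chosen with earlier results of these data known. All 9 genes are named. Their tests are printed at an unadjusted p under 0.05 and otherwise by ranges or where a result turns on them. From each list up to 6 genes with an adjusted p under 0.05 were named, and the 3 genes most correlated with each of the 9 were taken among genes with a mean log2 CPM of at least 0. Likeness without mouse 20 and the correlations within 16 tumors were added after the data were seen. Some genes that these rules select are not reported here. Promoter stretches are from RefSeq (GRCm38.p6).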

Additional observations from a re-analysis of the deposited data

How the results depend on the processing

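Only results for single genes at an unadjusted p under 0.05 in the main test, with no group at 0 counts, were run again. Of these 33 results, 30 kept their direction in every alternative run. Of 506 alternatives, which include leaving out each tumor, 447 kept direction and side of the threshold. Il27ra in SC tumors, which turned from -1.05 to 0.71 with the GC content and length correction, was not among the 33. In SC tumors Socs3 turned to 0.65 with the GC content and length correction, and in the day 14 cabo comparison the muscle covariate turned Socs3 to -0.19 and Stat3 to -0.31. With an unadjusted p under 0.05 and a fold change of at least 1.5, the number of the 9 genes called was 6 in SC tumors, 6 over time in cabo, 4 over time on average, 2 over time in control and in IL-27+cabo, and 1 each over time in IL-27, for cabo and IL-27+cabo on day 14, for their combination term, for IL-27+cabo at EOS and for cabo on average. DESeq2 called 5 in SC tumors, 5 over time in cabo, 3 with cabo on day 14, 2 over time in control and on average, and 1 over time in IL-27+cabo and for cabo on average. RLE factors gave 2 and division by 4 gave 3 in SC tumors, and division by 4 gave 1 with cabo on day 14. The GC correction gave 0 in SC tumors and 2 over time on average. Over time in cabo there was 1 call without a filter, 0 with the muscle covariate and 0 in 1 fit of 20 tumors, and the muscle covariate gave 0 over time on average. The causes of these shifts were not tested.

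Leaving out 1 tumor gave 0 to 5 calls in SC tumors (0 without control 1, 5 without control 2), 0 to 1 with cabo on day 14 (1 without control 5), 0 to 3 over time in cabo, 0 to 1 for cabo on average (1 without IL-27+cabo 20 or day 14 IL-27 8) and 0 to 3 over time on average (3 without IL-27+cabo 20, 2 without day 14 IL-27 6). An arm left with 1 tumor is assumed to vary like the others.

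The SC tumors share numbers 1 and 2, but deviations of same-numbered tumors had a correlation of 0.031, so the numbers were not taken to pair them. With the replicate block 2 of the 8 genes were called, Socs3 and Stat4 (2.44). With the replicate block and GC correction 1 was, Stat4 (1.88), and Socs3 was at 0.67. No paired analysis was possible for intratibial tumors because the groups share no mouse number. Depth limits Il27, whose counts were between 0 and 43.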
